A study of Caenorhabditis elegans with 18 samples.

Results

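Gene expression was compared between young adult hermaphrodites of the nematode Caenorhabditis elegans raised on plates with ascr#10 and hermaphrodites raised on water control plates, 58 h after synchronised L1 larvae were placed on food, in the first collection of worms at that age. Of the 18 libraries in the series, 6 belong to this comparison, 3 for ascr#10 and 3 for water, and 14075 of the 46253 genes in the gene table had enough reads to be tested. Both groups were wild-type N2 whole worms grown at 20 °C on OP50 bacteria from 30 to 50 L1 larvae per plate, with 6 plates per condition. The ascr#10 plates carried 2.2 fg of the pheromone per 60 mm plate or 1.1 fg per 35 mm plate, from an ethanol stock diluted in water, and the control plates carried water. Delayed or abnormal worms and males were picked off before harvest. According to the labels each condition was sampled independently 3 times, but how the cultures were kept apart is not said, so the p-values rest on the spread among these 6 libraries, which may be partly technical. The remaining 12 libraries are 3 of ascr#10 and 3 of water at 58 h from a second collection, which was made because the first had too little depth, and 3 of ascr#10 and 3 of water at 50 h from the first collection.

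Ascr#10 is an ascaroside, a small glycolipid that C. elegans releases as a pheromone, and it is made in larger amounts by males than by hermaphrodites. A hermaphrodite makes a limited store of sperm in its last larval stage and then switches to oocytes for the rest of its life, so that sperm transcripts fade in the young adult. The last moult lies shortly before this age, when the epidermis stops making larval cuticle. The intestine is the main organ of digestion, fat storage and yolk production.

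The 3 ascr#10 libraries held 32932976, 26680017 and 26828575 estimated reads, and the 3 water libraries 28384965, 26209515 and 25906759. Ribosomal RNA took 0.819%, 0.397% and 0.590% of the reads in ascr#10 libraries and 0.429%, 0.982% and 0.402% in water libraries. In a principal component analysis of the log2 CPM, the read count scaled to a common library size, the first component held 41.5% of the variance and parted the groups, with the ascr#10 libraries between −19.7 and −16.9 and the water libraries between 17.6 and 18.7. Replicates lay close together, with a biological coefficient of variation of 2.90%. Small differences were therefore within reach of the test for well-covered genes.

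In level, 1045 genes (7.42% of those tested) differed between ascr#10 and water worms. The test was edgeR's quasi-likelihood test at a Benjamini-Hochberg adjusted p of 0.05. Of these genes, 352 were higher in ascr#10 worms (2.5% of those tested) and 693 were lower (4.92%). The falls were the larger changes, with a median log2 fold change of −0.55 among the lower genes and 0.20 among the higher ones, while the median over all tested genes was 0.0016. At least a 1.5-fold change was seen for 329 of the lower genes but 30 of the higher ones, and at least a 2-fold change for 153 and 9. The groups did not overlap for 23% of all tested genes, whether or not these were called. They overlapped for 20 of the 1045 called genes, so a lack of overlap adds little to a call. The count of higher genes was 225 without ascr#10 replicate 2, 230 without water replicate 1 and 220 without water replicate 3. Of the calls, 33.7% were higher in ascr#10, and 22.0% when limma was run on log2(TPM + 1), TPM being the deposited abundance corrected for transcript length.

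**Figure D1:**
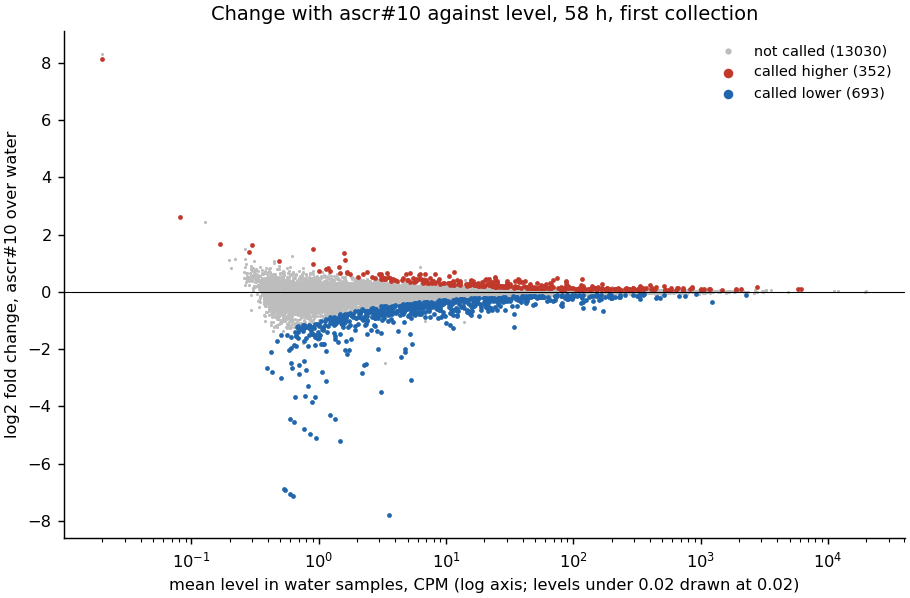
Log2 fold change of ascr#10 over water (vertical axis) against the mean level in water libraries in CPM (log axis) for each tested gene; colours mark the 352 genes called higher and the 693 called lower. The deep falls lie among genes with low levels, and the rises are shallow and lie mostly at medium and high levels.

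Rises and falls sat at different expression levels. The median level in water worms was 42.6 CPM for the genes called higher, 6.64 CPM for those called lower and 12.5 CPM for all tested genes. Among genes with a mean of 1 to 10 CPM in water worms, 71 of 4559 were called higher (1.56%) and 339 lower (7.44%). Among the 103 genes above 1000 CPM, 15 were called higher (14.6%) and 2 lower (1.94%). By chromosome, the share of tested genes called lower was highest on chromosome IV, at 7.04%, and lowest on chromosome III, at 3.38%. On the mitochondrial genome none of 14 genes was called. Its 12 protein genes all had a log2 fold change above 0, with a median of 0.12. At an unadjusted p under 0.05 there were 3 of them, all higher with ascr#10, against 2601 of all 14075 tested genes. DESeq2 called none of the 12. The count of higher genes among the 12 was 6 without ascr#10 replicate 2 and 1 without ascr#10 replicate 1 or 3.

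Sperm transcripts fell in ascr#10 worms. The gene lists here and below were chosen with earlier results of these data known, so their shares are descriptions and not tests. Of 28 tested genes for major sperm proteins, which form the moving cytoskeleton of nematode sperm, 23 were called lower and none higher, which is 82.1% of the family, against 4.92% of all tested genes. Their median log2 fold change was −0.56. The nspd genes, which encode small sperm peptides, had 7 of 9 members lower and none higher, with a median of −0.53. Among 38 other sperm genes, 15 were lower and none higher, with a median of −0.54. The nspd count was 4 without ascr#10 replicate 2. In whole worms, fewer sperm and less RNA per sperm cannot be told apart, and the msp and nspd genes have near-identical copies whose reads may have been divided among them, so that single members are uncertain.

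The gene msp-53 (WBGene00003446, IV:5064678-5065061) had 19.6, 19.0 and 21.5 CPM in ascr#10 worms, against 31.6, 34.7 and 35.4 CPM in water worms. The ascr#10 values all lay below the water values, for a log2 fold change of −0.76 (SE 0.0575, adjusted p = 1.33e-14). For msp-56 the values were 12.5, 13.8 and 14.7 CPM in ascr#10 worms and 21.9, 21.8 and 20.7 CPM in water worms, a log2 fold change of −0.66 (adjusted p = 2.61e-10). Over the 28 tested msp genes, the summed level was 187 to 198 CPM in the ascr#10 libraries and 287 to 295 CPM in the water libraries.

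The small sperm-specific gene ssq-4 had 18.5, 18.1 and 19.9 CPM in ascr#10 worms and 28.7, 28.1 and 30.1 CPM in water worms, without overlap, for a log2 fold change of −0.62 (SE 0.0581, adjusted p = 1.13e-11). Its relative ssq-1 had 12.2, 12.6 and 11.8 CPM with ascr#10 and 17.7, 20.2 and 18.8 CPM with water, a log2 fold change of −0.63 (adjusted p = 2.19e-09). The sperm protein phosphatase gene gsp-3, needed for sperm maturation and motility, had 3.13, 3.56 and 3.06 CPM with ascr#10 and 6.02, 5.18 and 5.97 CPM with water, a log2 fold change of −0.82 (adjusted p = 5.28e-06). In each of these sperm genes the highest ascr#10 library lay below the lowest water library. The myosin gene spe-15, which acts in sorting material out of the budding spermatid, had the smallest fall of the 15, at −0.32 (adjusted p = 0.000155). The low-level genes fer-1 and spe-9 did not pass. The gene fer-1, needed for membrane fusion in sperm, had 0.798, 1.29 and 1.19 CPM with ascr#10 and 1.65, 1.74 and 1.46 CPM with water (log2 fold change −0.58, adjusted p = 0.15). For spe-9, a sperm surface protein needed at fertilisation, the log2 fold change was −0.68 (adjusted p = 0.238), with overlapping groups.

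Markers of males, which also make sperm, were near 0 in both groups. Of 11 male-specific somatic genes, 3 passed the filter. These 3 together reached 1.10 to 1.53 CPM in ascr#10 libraries and 0.962 to 1.21 CPM in water libraries. The male sensory genes lov-1 and pkd-2 had at most 6 reads in any library, and cwp-3 had 0 in all 6. None of the 3 male-specific genes that passed the filter, and none of 9 tested early zygotic genes, which mark embryos held in the uterus, was called by edgeR or DESeq2, nor had any an unadjusted p under 0.05. For the 9 tested zygotic genes the summed level was 24.4 to 26.4 CPM in ascr#10 libraries and 23.2 to 24.5 CPM in water libraries.

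**Figure D2:**
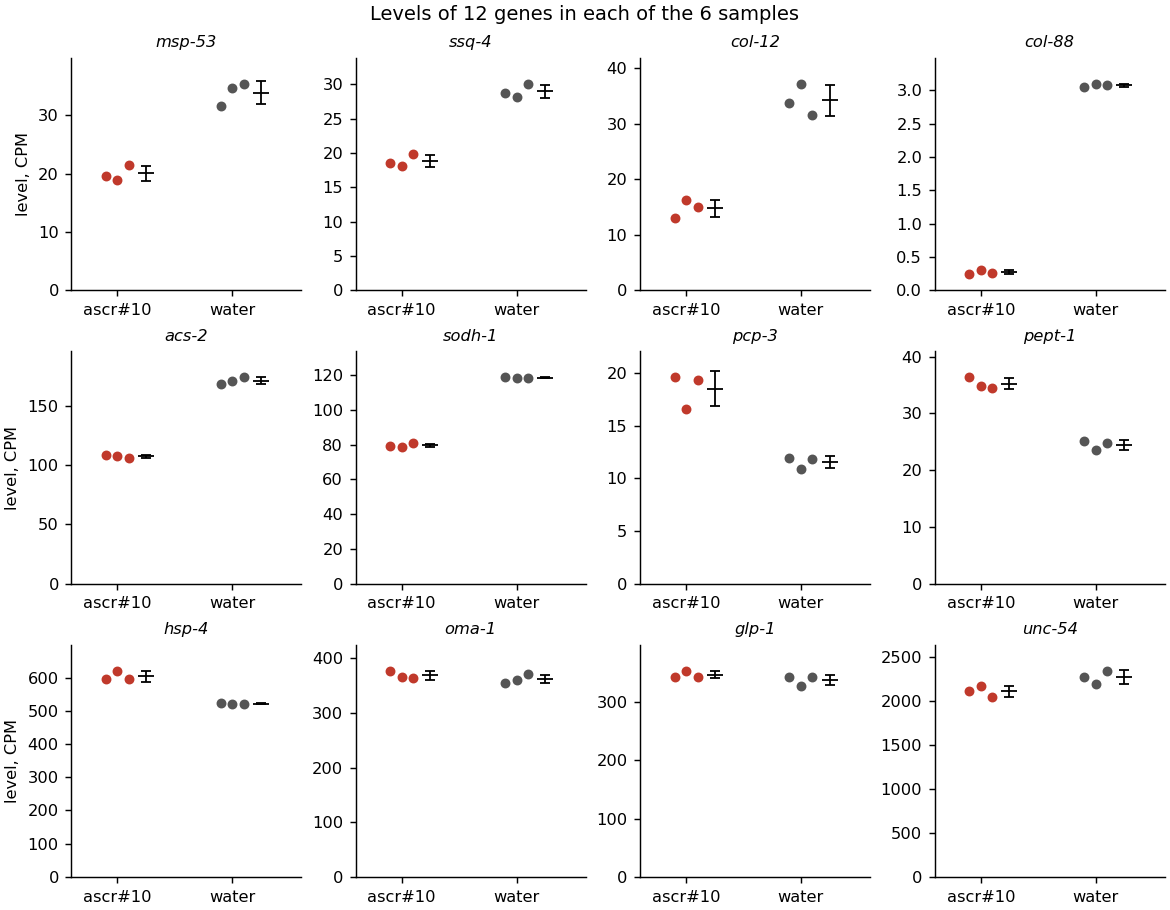
CPM of 12 genes in each of the 3 ascr#10 libraries (left in each panel) and the 3 water libraries (right), with the mean and SD. Groups are apart for the sperm genes msp-53 and ssq-4, the collagens col-12 and col-88, acs-2, sodh-1, pcp-3, pept-1 and hsp-4, differ by a small step for unc-54, and overlap for oma-1 and glp-1.

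Cuticle collagens gave the largest group of falls. The col family, whose proteins are secreted by the epidermis and cross-linked into the cuticle at each moult, had 99 tested members, of which 40 were lower (40.4%), 14 higher (14.1%) and 45 not called, with a median log2 fold change of −0.27. Of all tested genes, 4.92% were lower and 2.5% higher. The 14 became 9 without ascr#10 replicate 2, 7 without water replicate 1 and 9 without water replicate 3. The summed level of the 99 col genes did not fall. It was 24776, 25651 and 25308 CPM with ascr#10 and 24023, 24578 and 24388 CPM with water. Body-shape and blister collagens had 6 of 12 members lower and none higher, or 3 lower without water replicate 3. The abu genes, which encode repeat proteins of the pharyngeal cuticle, had 6 of 8 members lower and none higher, with a median of −1.94. Some col and abu genes also have close copies, and their single values carry the same uncertainty as the msp genes.

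The collagen gene col-12 (WBGene00000601, V:10423898-10425198) had 13.1, 16.2 and 14.9 CPM in ascr#10 worms and 33.7, 37.1 and 31.6 CPM in water worms, a log2 fold change of −1.22 (SE 0.0682, adjusted p = 3.06e-15). For col-88 the values were 0.245, 0.303 and 0.261 CPM in ascr#10 worms and 3.05, 3.10 and 3.08 CPM in water worms, a log2 fold change of −3.50 (SE 0.263, adjusted p = 8.69e-15). Neither gene had overlapping groups, and col-88 had few reads in ascr#10 worms. For col-77, which had 0.798, 0.834 and 1.12 CPM with ascr#10 and 4.34, 3.97 and 5.04 CPM with water, the log2 fold change was −2.28 (adjusted p = 1.66e-13). The rises in this family were of another size. The gene col-101 had 950, 971 and 958 CPM in ascr#10 worms and 854, 872 and 867 CPM in water worms, a log2 fold change of 0.15 (SE 0.0245, adjusted p = 9.2e-06), and col-143 rose by 0.14.

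Among the collagens named for their body-shape mutants, dpy-4 had 0.552, 0.227 and 0.373 CPM with ascr#10 and 1.72, 1.78 and 1.35 CPM with water (log2 fold change −2.02, adjusted p = 2.8e-06). The gene sqt-3 had 6.44, 6.74 and 7.06 CPM with ascr#10 and 9.24, 8.92 and 9.39 CPM with water (log2 fold change −0.45, adjusted p = 0.000777). Both were without overlap. In the pharynx, abu-14 had 0.521, 0.455 and 0.523 CPM with ascr#10 and 1.79, 1.51 and 1.65 CPM with water (log2 fold change −1.71, adjusted p = 1.14e-05). Of 29 moulting genes, 2 were lower, a share of 6.90% that is near the 4.92% of all tested genes. They were the kinase gene nekl-2 (−0.45) and noah-1 (−0.22), a component of the apical extracellular matrix. The count was 1 without ascr#10 replicate 2 or 3 or water replicate 1 or 3, and 3 without ascr#10 replicate 1, and noah-1 passed in 2 of the 6 fits that left out a library. Among hedgehog-related genes, which are expressed in epidermal cells and cycle with the moults, 3 of 22 were lower, with grd-6 at −3.66 and grl-16 at −2.83, and grd-3 was higher at 0.14. None of the 14 heterochronic genes, which time larval stages, was lower, and lin-28 was higher at 0.13 (adjusted p = 0.0366), passing in 1 of those 6 fits.

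The gene with the smallest p among the lower genes was acs-2 (V:15567394-15569897), an acyl-CoA synthetase of mitochondrial fatty acid oxidation that fasting induces. It had 109, 108 and 106 CPM in ascr#10 worms and 169, 172 and 174 CPM in water worms, a log2 fold change of −0.67 (SE 0.0294, adjusted p = 6.86e-24). The replicates of each group lay within a few percent of each other, far less than the distance between the groups. The alcohol dehydrogenase gene sodh-1 had 79.6, 78.7 and 80.8 CPM with ascr#10 and 119 CPM in each water library, a log2 fold change of −0.58 (SE 0.0326, adjusted p = 3.03e-19). The gene icl-1, which encodes the joined isocitrate lyase and malate synthase of the glyoxylate cycle, had 987, 967 and 933 CPM with ascr#10 and 1233, 1209 and 1232 CPM with water, a log2 fold change of −0.35 (SE 0.0253, adjusted p = 3.06e-15).

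Of all tested genes, 4.92% were lower and 2.5% higher. In the list of 11 genes for the glyoxylate cycle and gluconeogenesis, 6 were lower and none higher, with a median log2 fold change of −0.089. Besides sodh-1 and icl-1 these included pck-1, a phosphoenolpyruvate carboxykinase (−0.18), and gpd-3, a glyceraldehyde-3-phosphate dehydrogenase (−0.11). The acyl-CoA synthetase family had 5 of 21 members lower, among them acs-22 (−0.29) and acs-17 (−0.24), and 2 higher, acs-14 (0.21) and acs-1. The member acs-1 had 83.5, 81.8 and 81.6 CPM in ascr#10 worms and 67.2, 62.8 and 67.3 CPM in water worms, a log2 fold change of 0.32 (adjusted p = 3.18e-09). Its direction was the opposite of that of acs-2. The non-coding RNA tts-1, which associates with ribosomes in long-lived mutants, had 99.7, 95.6 and 104 CPM with ascr#10 and 147, 144 and 146 CPM with water (log2 fold change −0.54, adjusted p = 6.92e-19).

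The rises included transporters and enzymes of the gut. Of 18 tested intestinal genes, 4 were higher (22.2%, against 2.5% of all tested genes) and none lower, with a median log2 fold change of 0.012. This list too was chosen with earlier results known. These 4 were pept-1, the intestinal importer of small peptides, the acid phosphatase gene pho-1, the intermediate filament gene ifd-2 (0.39) and act-5, the actin of the microvilli. Of 43 digestive proteases, lysozymes and saposins, 9 were higher and 2 lower. The higher count was 5 without ascr#10 replicate 2, and the lower count 1 without ascr#10 replicate 1 or 2 or water replicate 1 or 3. The intestinal transcription factor gene elt-2 did not pass, with a log2 fold change of −0.05.

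The gene pept-1 (X:6456872-6461767) had 36.4, 34.8 and 34.5 CPM in ascr#10 worms and 25.1, 23.5 and 24.7 CPM in water worms, a log2 fold change of 0.53 (SE 0.0518, adjusted p = 3.59e-11). The serine carboxypeptidase gene pcp-3 (IV:9155148-9159019) had 19.6, 16.6 and 19.3 CPM with ascr#10 and 12, 10.9 and 11.8 CPM with water, a log2 fold change of 0.68 (SE 0.0745, adjusted p = 9.26e-10). For pho-1 the values were 32.9, 35.4 and 34.2 CPM with ascr#10 and 24.1, 24.2 and 23.9 CPM with water (log2 fold change 0.50, adjusted p = 2.59e-10). No library of either group reached into the other for these genes, which the rule by which they were named required. The lysozyme gene lys-2 had 51.4, 49.8 and 49.7 CPM with ascr#10 and 38.7, 40.4 and 39.7 CPM with water (log2 fold change 0.35, adjusted p = 2.73e-08), while lys-1 rose by 0.22 and lys-7 by 0.17. Against this direction, the cathepsin B-like gene cpr-1 had 202, 202 and 203 CPM with ascr#10 and 232, 231 and 225 CPM with water (log2 fold change −0.18, adjusted p = 7.2e-07).

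Glucuronosyltransferases, which attach sugars to foreign and internal compounds, changed in both directions, with 10 of 56 higher and 6 lower. These shares were 17.9% and 10.7%, against 2.5% and 4.92% of all tested genes. In this family ugt-62 had 111, 111 and 120 CPM with ascr#10 and 87.9, 86.8 and 88.2 CPM with water (log2 fold change 0.38, adjusted p = 3.2e-12). Lower values with ascr#10 were seen for ugt-54, at 17.4, 15.8 and 16.9 CPM, against 24.7, 23.8 and 23.8 CPM with water (log2 fold change −0.53, adjusted p = 7.38e-09). The oac family of acyltransferases had 5 of 15 members higher and none lower, among them oac-6 (0.44) and oac-20 (0.40). The gene with the smallest p among those that rose was Y94H6A.10 (IV:2710121-2710666), which has no gene name, with 102, 102 and 109 CPM in ascr#10 worms and 76.4, 76.2 and 71.7 CPM in water worms (log2 fold change 0.48, SE 0.0357, adjusted p = 7.28e-15). The fatty acid amide hydrolase gene faah-2 had 164, 159 and 161 CPM with ascr#10 and 126, 112 and 113 CPM with water (log2 fold change 0.46, adjusted p = 4.1e-12).

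The other genes with the largest rises had low to medium levels. The nuclear hormone receptor gene nhr-173 had 9.32, 10.3 and 9.41 CPM in ascr#10 worms and 6.55, 7.25 and 5.04 CPM in water worms (log2 fold change 0.62, adjusted p = 1.85e-05). For trhr-1, a homologue of the receptor for thyrotropin-releasing hormone, the values were 8.16, 7.12 and 7.51 CPM with ascr#10 and 5.46, 4.91 and 4.31 CPM with water (log2 fold change 0.63, adjusted p = 3e-05). The galectin gene lec-11 had 16.6, 15.8 and 14.3 CPM with ascr#10 and 10.9, 9.94 and 10.9 CPM with water (log2 fold change 0.56, adjusted p = 3.43e-07). All 3 genes were without overlap between the groups, which the rule by which they were named required. The C-type lectins, sugar-binding proteins of which many are secreted, had 5 of 89 members higher and 10 lower. These shares were 5.62% and 11.2%, against 2.5% and 4.92% of all tested genes. The higher count was 2 without any single library other than ascr#10 replicates 1 and 3, and the lower count 6 without ascr#10 replicate 3. The fall with the smallest p was that of clec-223, with 62.1, 56.6 and 56.3 CPM with ascr#10 and 78.4, 78.1 and 85.8 CPM with water (log2 fold change −0.47, adjusted p = 2.46e-11).

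Large chaperones had 5 of 25 members higher (20%, against 2.5% of all tested genes) and none lower, and 3 higher without any single library other than ascr#10 replicate 3. The chaperone gene hsp-4, the BiP of the endoplasmic reticulum that the unfolded protein response induces, had 595, 621 and 594 CPM in ascr#10 worms and 523, 519 and 521 CPM in water worms, a log2 fold change of 0.21 (SE 0.0248, adjusted p = 5.88e-09). Its relative hsp-3 rose by 0.11 and the mitochondrial chaperonin gene hsp-60 by 0.13. The translocon gene sec-61 had 982, 952 and 927 CPM with ascr#10 and 847, 846 and 875 CPM with water (log2 fold change 0.16, adjusted p = 1.16e-05). These steps were small, and the groups were apart in hsp-4 and sec-61. Among 19 oxidative stress genes, 3 were higher and 1 lower, or 21.1% called against 7.42% of all tested genes. The higher count was 1 without ascr#10 replicate 3 or without water replicate 3, and the lower count 0 without water replicate 2 and 2 without ascr#10 replicate 2. The methionine sulfoxide reductase gene msra-1 had 461, 470 and 487 CPM with ascr#10 and 393, 412 and 394 CPM with water (log2 fold change 0.24, adjusted p = 5.06e-10), without overlap. The catalase gene ctl-1 had 49.0, 50.1 and 53.7 CPM with ascr#10 and 56.5, 62.0 and 55.8 CPM with water (log2 fold change −0.19, adjusted p = 0.00195).

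In the list of propionate, glycine cleavage and one-carbon genes, 6 of 26 were higher and 2 lower, with a median log2 fold change of 0.007. Of all tested genes, 2.5% were higher and 4.92% lower. The glycine cleavage gene gcsh-1 (X:14514130-14515073) had 3.93, 4.09 and 4.11 CPM in ascr#10 worms and 1.58, 1.66 and 1.5 CPM in water worms, a log2 fold change of 1.35 (SE 0.164, adjusted p = 1.31e-08). It was far apart from the other members that rose, gldc-1 of the same enzyme complex (0.20), the S-adenosylmethionine synthetase gene sams-1 (0.17) and the methionine synthase gene metr-1 (0.14). The lower genes were mce-1 (−0.19) and mmcm-1 (−0.09), which act in propionate breakdown, and neither passed without ascr#10 replicate 2 or without water replicate 1. Among fatty acid genes, the elongases elo-2 (0.37, adjusted p = 9.46e-06) and elo-5 (0.27) were higher and 1 of 22 was lower, hacd-1 at −0.43. Without ascr#10 replicate 3 the list had 4 higher genes. The desaturase gene fat-7 had a log2 fold change of 0.01 (adjusted p = 0.95).

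The intestine expresses the yolk genes for export to oocytes. The list of yolk and yolk uptake genes had 3 of 10 members higher (30%, against 2.5% of all tested genes) and none lower. The higher count was 1 without ascr#10 replicate 2 and 1 without water replicate 2. The gene vit-1 had 3161, 3197 and 3032 CPM in ascr#10 worms and 2792, 2707 and 2832 CPM in water worms, a log2 fold change of 0.17 (SE 0.025, adjusted p = 9.49e-07). The values for vit-3 and vit-4 were 0.09 and 0.11. The gene vit-2 had 19760, 19902 and 18508 CPM with ascr#10 and 19793, 18593 and 19972 CPM with water, with overlapping groups and an adjusted p of 0.957. The vit genes have close copies, so reads may have been divided between them.

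In 5 lists of oocyte and germline genes no member passed edgeR's test. These were 23 maternal RNA regulators, 15 egg surface and eggshell genes, 16 genes of germline stem cells and meiotic entry, 33 meiotic chromosome genes and 21 germ granule genes, with log2 fold changes between −0.39 and 0.09. At an unadjusted p under 0.05 there were 7, 2, 2, 1 and 3 genes in these lists, the 7 maternal ones all higher with ascr#10, and DESeq2 also called none. Over all 14075 tested genes there were 2601, a larger share than in any of these lists but the maternal one. In the second collection 18, 11, 7, 16 and 12 genes of these lists were higher and none lower, against 12.7% of any gene higher. The difference between the collections was called for 2, 4, 1, 0 and 0 of them. At 50 h 12, 8, 1, 1 and 5 were higher, and 0, 0, 1, 1 and 1 lower. In the first collection at 58 h, a single maternal gene was called higher without ascr#10 replicate 3, and a single meiotic gene lower without water replicate 2. The fit of all 18 samples called 1 gene of the stem cell list lower. The maternal RNA-binding protein gene oma-1, needed for oocyte maturation, had 377, 365 and 364 CPM in ascr#10 worms and 356, 360 and 371 CPM in water worms, a log2 fold change of 0.03 (SE 0.0246, adjusted p = 0.643). The Notch receptor gene glp-1, which keeps germline stem cells dividing, had 343, 353 and 343 CPM with ascr#10 and 342, 327 and 343 CPM with water (log2 fold change 0.04, adjusted p = 0.435). Both pairs of groups overlapped. Its targets in stem cells, sygl-1 (0.01) and lst-1 (0.05), did not pass either, nor did rme-2 (0.04), the yolk receptor of oocytes, oma-2 (0.02) and lin-41 (0.02), which keeps oocytes from maturing early. The replication and mitosis list had 1 of 29 genes higher, a share of 3.45% that is near the 2.5% of all tested genes. It was cdk-1 at 0.08 (adjusted p = 0.0386), which passed in 2 of the 6 fits that left out a library.

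Among genes of cell death, which also removes germ cells, 1 passed, a share of 6.67% that is near the 7.42% of all tested genes. The engulfment receptor gene ced-1 had 104, 102 and 106 CPM with ascr#10 and 109, 109 and 111 CPM with water, groups that did not overlap, but a log2 fold change of −0.08 (SE 0.0317) that did not pass (adjusted p = 0.146). The caspase gene ced-3 had a log2 fold change of 0.03 and the p53 homologue cep-1 one of 0.00. For egl-1, the trigger of cell death, the log2 fold change was 0.00 with an SE of 0.327, so that a change of moderate size was not detectable at this depth. The 1 of 15 genes that passed was the cell membrane protein gene ced-8 (0.35, adjusted p = 0.043), and none of the list passed without ascr#10 replicate 1 or 2 or water replicate 2 or 3.

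The pan-neuronal and serotonin lists had no call, and the muscle list had 5. By edgeR and by DESeq2, none of 23 pan-neuronal and transmitter genes and none of 10 serotonin genes was called. At an unadjusted p under 0.05 there were 1 and 0, against 2601 of all 14075 tested genes. The serotonin-gated channel gene mod-1 had a log2 fold change of −0.21 (SE 0.205, adjusted p = 0.662) and the serotonin transporter gene mod-5 one of 0.04. The serotonin synthesis gene tph-1 fell below the filter, with 6, 8 and 10 reads in the ascr#10 libraries and 10, 9 and 15 in the water libraries. Among 28 muscle genes, 4 were lower and 1 higher, or 17.9% called, against 7.42% of all tested genes. The lower count was 2 without ascr#10 replicate 3 and 1 without water replicate 3. The single higher one, pat-10 (0.08), passed in 1 of the 6 fits that left out a library. The body-wall myosin gene unc-54 had 2122, 2173 and 2051 CPM in ascr#10 worms and 2281, 2193 and 2350 CPM in water worms (log2 fold change −0.10, adjusted p = 0.00566). The ascaroside synthesis list, with daf-22 (0.06, adjusted p = 0.577) for side-chain shortening, had none of 10 genes called by edgeR or DESeq2, and 3 higher with ascr#10 at an unadjusted p under 0.05. Its count of higher genes was 2 without water replicate 2, 1 without ascr#10 replicate 3 and 1 in the fit of all 18 samples.

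**Figure D3:**
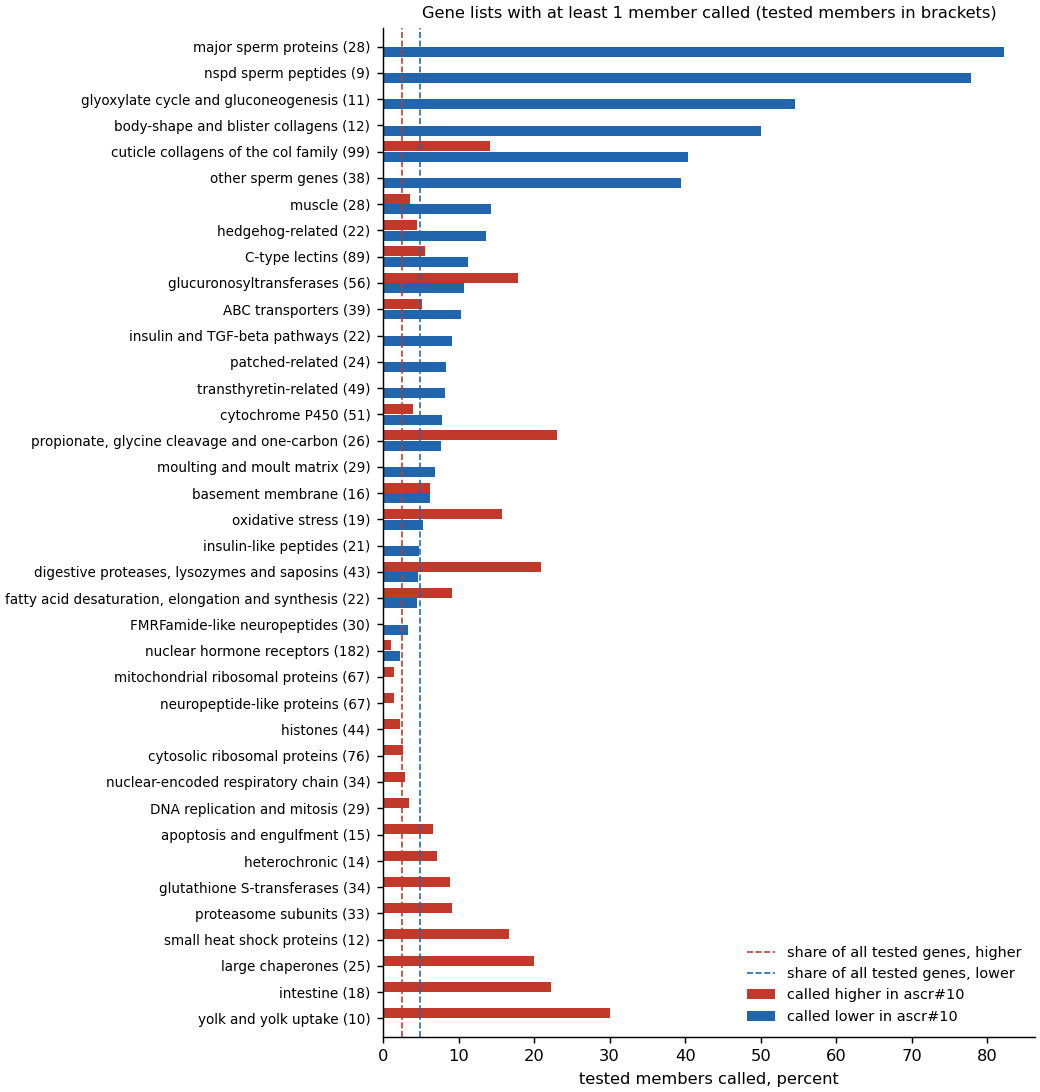
Percent of each gene list called higher and lower in ascr#10 worms, for the lists with at least 1 call; dashed lines give the share among all 14075 tested genes, 2.5% higher and 4.92% lower. The sperm, collagen and glyoxylate lists reach furthest on the lower side.

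Most of the genes that fell were also lower at 58 h than at 50 h in water worms. Their levels were looked up in libraries outside this comparison, as the ratio of water worms at 58 h in the second collection to water worms at 50 h, in which age and collection cannot be told apart. Of the 693 genes lower with ascr#10, 567 (81.8%) were at least 1.5-fold lower in the 58 h water worms than in the 50 h ones, against 23.2% of the genes not called. Among the 329 that fell at least 1.5-fold, the share was 92.1%, with a median log2 ratio of −3.59. Of the 352 genes higher with ascr#10, 137 (38.9%) were at least 1.5-fold higher in the 58 h water worms, against 19.8% of those not called. The collagen col-12 averaged 13.0 CPM in water worms at 58 h in the second collection and 957.8 CPM in water worms at 50 h. For msp-53 the averages were 39.8 CPM at 58 h and 294.3 CPM at 50 h. Whether the ascr#10 and water worms differed in stage at harvest was not tested.

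**Figure D4:**
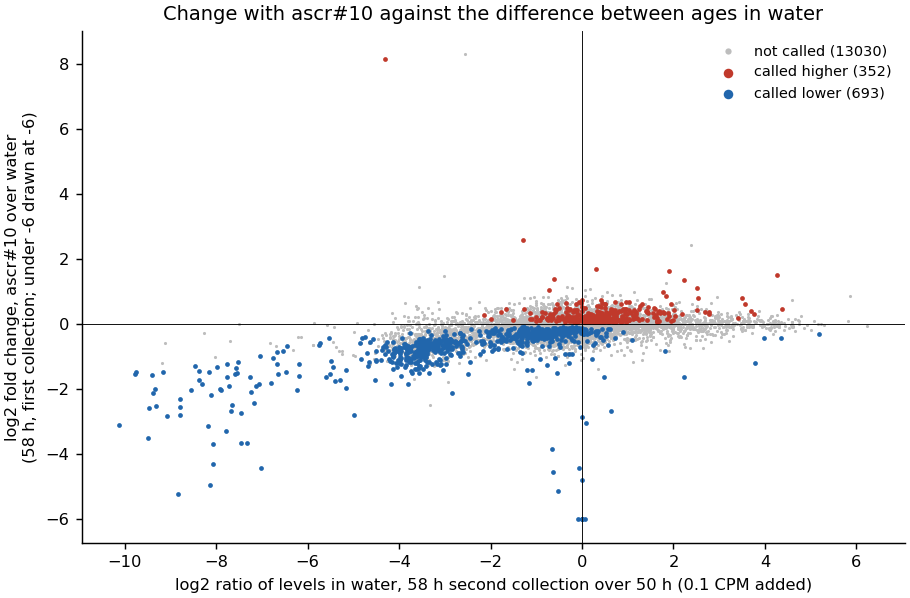
Log2 ratio of the level in 58 h water worms of the second collection over 50 h water worms (horizontal axis, 0.1 CPM added) against the log2 fold change of ascr#10 over water (vertical axis) for each tested gene. Log2 fold changes under −6 are drawn at −6. Most genes called lower lie on the left, with 567 of 693 at least 1.5-fold lower at 58 h.

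The second collection at 58 h and the 50 h worms share no library with this comparison. Of the 655 lower genes also tested in the second collection, 363 were lower there (55.4%) and 11 higher (1.68%), against 18% and 12.7% for any gene. These 363 were 14.4% of the genes lower in the second collection. The higher genes behaved otherwise: of 352, 35 were higher in the second collection (9.94%) and 155 lower (44.0%), with a median log2 fold change of −0.095 there. At 50 h, 214 of 351 higher genes were higher (61.0%, against 11.4% of any gene, and 13.9% of the genes higher at 50 h) and 322 of 676 lower genes were lower (47.6%, against 8.25%, and 28.8% of the genes lower at 50 h). Across genes the fold changes had a Pearson correlation of 0.23 with those of the second collection over 14012 genes and 0.21 with those at 50 h over 13552 genes, as a description, since genes share libraries. Over the genes called here at 1.5-fold or more, the correlations were −0.051 with the second collection (321 genes) and 0.19 with 50 h (343 genes).

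**Figure D5:**
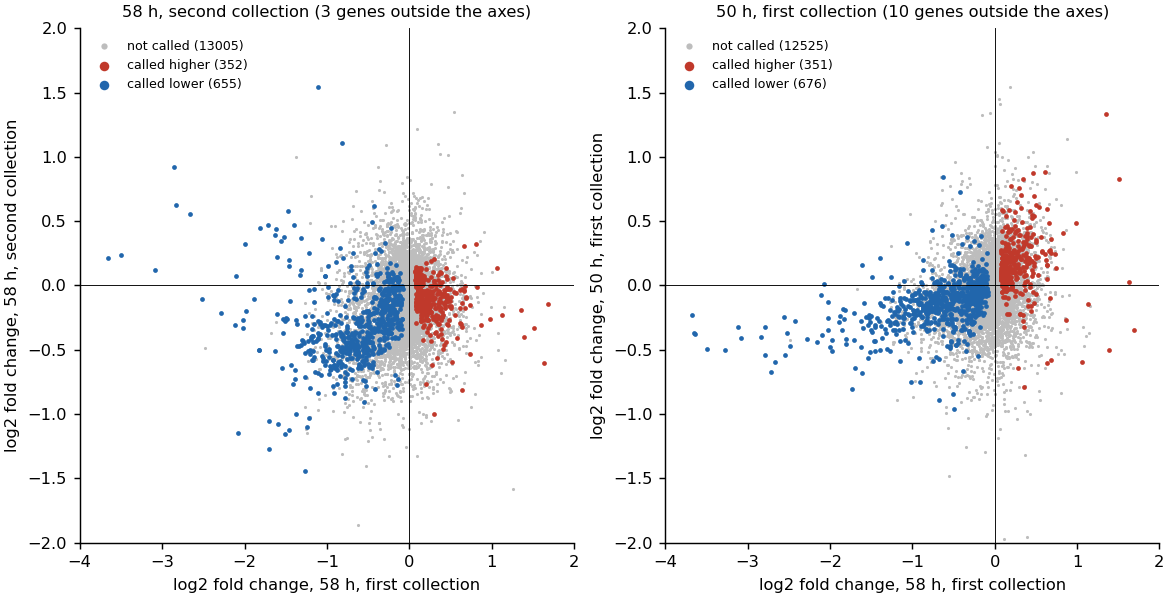
Log2 fold change of ascr#10 over water in the first collection at 58 h (horizontal axis) against that in the second collection at 58 h (left panel) and at 50 h (right panel), each point a gene, coloured by its call in the first collection; 3 and 10 genes lie outside the axes. In the left panel most of the genes called higher have a vertical value near or under 0, and at 50 h most have a positive one.

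The effect of ascr#10 differed between the collections for 1586 genes by the interaction test, 10.2% of 15487 tested, with 1347 more positive in the first collection and 239 more negative. The difference was positive for all 28 tested muscle genes, of which 27 were lower with ascr#10 in the second collection. It was also positive for 24 of 43 digestive genes, of which none was higher and 31 were lower in the second collection. The log2 fold change of pcp-3 was 0.68 here and −0.17 in the second collection (difference adjusted p = 1.8e-10), and for gcsh-1 it was 1.35 and −0.19 (adjusted p = 1.36e-09). The sperm lists behaved otherwise, with 1 of 28 msp genes, none of 9 nspd genes and 1 of 38 other sperm genes called for a difference, and 25, 9 and 19 of them lower in the second collection. In the col family 26 differences were positive and 26 negative. In the second collection col-12 had a log2 fold change of −0.04 and averaged 12.8 CPM with ascr#10 and 13.0 CPM with water (difference −1.15, adjusted p = 1.94e-11). The gene sqt-3 changed by −0.45 here and by 0.49 in the second collection (difference adjusted p = 2.67e-06). The libraries of the second collection held 54285989 to 72251267 reads, and those of the first 25630681 to 32932976, and the part of depth in these differences was not tested.

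Between 58 h and 50 h in the first collection, the effect differed for 807 genes, 5.12% of 15773 tested, with 185 above at 58 h and 622 below. Of the 28 msp genes, 19 had a more negative effect at 58 h than at 50 h, as did 13 other sperm genes and 47 of 99 col genes. At 50 h msp-53 averaged 306.1 CPM with ascr#10 and 294.3 CPM with water, a log2 fold change of 0.06 (adjusted p = 0.422), and the difference between the ages had an adjusted p of 7.38e-08. The sperm gene ssq-4 averaged 284.8 CPM with ascr#10 and 305.6 CPM with water at 50 h, a small fall of 0.10 on the log2 scale. The metabolic gene acs-2 had a log2 fold change of −0.67 at 58 h and −0.57 at 50 h (difference adjusted p = 0.153), and tts-1 had −0.54 and −0.47 (adjusted p = 0.639). For gcsh-1 the values were 1.35 and 1.34 (adjusted p = 0.975). These p-values do not show that the effects were equal.

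The gene F41F3.3 (V:4647769-4648239), which has no gene name, had 0.552, 0.606 and 0.709 CPM in ascr#10 worms and 4.24, 5.14 and 6.50 CPM in water worms, a log2 fold change of −3.08 (SE 0.202, adjusted p = 1.26e-16). It averaged 253.4 CPM with ascr#10 and 336.2 CPM with water at 50 h. The gene F59B2.12 (III:9017601-9020965) went further, with 0, 1 and 0 reads in the ascr#10 libraries, against 91, 92 and 105 in the water libraries. The ratio of ascr#10 to water was 0.00328, which corresponds to a water level 305 times that of ascr#10 worms (exact 95% interval 54.3 to 12084, covering counting error only). At 50 h the order was the other way round, with 7, 19 and 23 reads with ascr#10 and 0, 0 and 1 with water. In the second collection it had 0 reads in each ascr#10 library and 0, 0 and 1 with water.

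Transcript usage within genes was also tested. Transcript counts had a biological coefficient of variation of 79.6%, against 2.90% for gene counts, so that shifts of moderate size were not detectable. Of 3091 genes with at least 2 transcripts kept, 39 were called (1.26%), and 7 of these were also called for their level. The calls with the smallest p were spsb-1 (adjusted p = 2.48e-11), lim-9 (1.88e-10), hpo-3 (4.08e-10), unc-101 (3.68e-05) and yars-2 (8.89e-05), and none of these 5 genes was called for its level. In each of them a transcript was listed at 0 in all 3 libraries of a group. In lim-9, a gene for a LIM domain protein of muscle that was chosen as the example after its values were seen, transcript F25H5.1c.2 took 9.79%, 7.34% and 15.4% of the gene in ascr#10 worms and was listed at 0 in the water libraries, while F25H5.1e.1 was listed at 0 with ascr#10 and took 14.5%, 6.90% and 9.44% with water. Such a 0 can be a failed estimate of a transcript that overlaps its neighbours. On simulated data of 3091 genes the usage test made 22 false calls, so many of the 39 may be false. The count was 68 to 96 when a library was left out, above 39 for each of the 6.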

How the data were processed

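Whole-worm RNA was sequenced as directional single-end reads, per the labels' protocols, and 1 µg of total RNA entered each library. The authors deposited salmon estimated counts per gene and per transcript, and TPM (abundance corrected for transcript length and scaled to a fixed total), merged over the 18 samples, per the file names and headers. No source used here gives the version of salmon, its use of strand, the genome build or the annotation, so reads of overlapping or antisense genes cannot be told apart. Of the deposited gene values, 95.2% were whole within 1e-9. Estimated counts were rounded to whole numbers.

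The 6 libraries (25906759 to 32932976 reads) were fitted alone with edgeR 4.0.16 in R 4.3.3: filterByExpr with a minimum count of 10, TMM scaling, robust quasi-likelihood F test, two-sided, Benjamini-Hochberg adjustment over all tested genes, threshold 0.05. The SE is the log2 fold change divided by the square root of F. Replicates are 3 per group, and reads were summed over the 3 libraries of a group only for the F59B2.12 ratio. Differences from the second collection and from 50 h were interaction terms in fits of 12 libraries each. Transcript usage was tested with diffSpliceDGE on rounded transcript counts. Coordinates, strands and symbols come from Ensembl 115 (WBcel235) by gene identifier, which matched 46167 of 46253 identifiers.

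Lists of a cell type, pathway or family (51 in all) and symbol families are described by counts and medians, with no test. The members and lists were chosen with earlier results of these data known. Genes named are the 15 largest and 15 lowest log2 fold changes among called, non-overlapping genes with at least 5 CPM in the higher group, the 5 smallest p per direction, up to 4 called members per direction of each list or family, a panel of genes, and the 5 smallest p in each interaction test and in the usage test. Genes and transcripts named outside this rule were chosen after their values were seen. No libraries held identical values. Alternatives were DESeq2 1.42.0, limma 3.58.1 on log2(TPM + 1) and log2(TPM + 0.1), other scalings and filters, length-scaled counts, a fit of all 18 samples, a test against a fold of 1.2, a replicate block and leaving out each library. The code was tested on simulated data with known changes. The main test found 39 of 67 genes changed 1.2-fold, 47 of 67 changed 1.5-fold and 59 of 66 changed 2-fold. It made 17 false calls. The usage test found 5 of 67 genes changed 2-fold, 30 of 67 changed 8-fold and 36 of 66 changed 32-fold. It made 22 false calls, and the collection and age interaction tests made 11 and 13. In each test the false share of the calls exceeded the adjusted p threshold. Intervals cover counting error only.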

Additional observations from a re-analysis of the deposited data

Results flagged for a closer look

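The results below are named genes whose response to ascr#10 differed between the first collection at 58 h and another set of libraries, by edgeR's interaction test with Benjamini-Hochberg adjustment. Each value is the log2 fold change of ascr#10 over water in the first collection at 58 h minus that in the other set, and neither set shares a library with the other.

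Over all genes, 1347 differences from the second collection were positive, while 352 genes were called higher in the first collection. The genes named here were picked by small p in the main or an interaction test, so they do not stand for all genes. Most of the named genes with a positive difference were called higher in the first collection at 58 h. Their values were 1.00 for Y58A7A.3 (adjusted p = 6.49e-17), 0.93 for the acyltransferase gene oac-14, 0.92 for F53B2.8, 0.80 for faah-2, 0.78 for Y94H6A.10, 0.51 for F46F2.3, 0.48 for ugt-62, 0.42 for vit-1 and 0.29 for vit-3. The difference was 0.18 for fat-7 (adjusted p = 0.0270), which did not pass in the first collection at 58 h. In this set oac-14 had 56.4, 55.4 and 55.6 CPM with ascr#10 and 45.4, 47.5 and 45.0 CPM with water. Its log2 fold change was 0.28 here, −0.61 in the second collection and −0.64 at 50 h. The differences were negative for F41F3.3 (−3.18), col-149 (−0.57), acs-2 (−0.38) and tts-1 (−0.19).

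Against 50 h, the differences were positive for oac-14 (0.93, adjusted p = 2.24e-22), F53B2.8 (0.44), faah-2 (0.37), ugt-62 (0.25) and Y58A7A.3 (0.23). They were negative for F41F3.3 (−2.66), col-149 (−1.10), fat-7 (−0.76), vit-3 (−0.49, adjusted p = 5.51e-23), vit-1 (−0.40), F46F2.3 (−0.40) and Y94H6A.10 (−0.20). The yolk gene vit-1 thus rose more at 50 h, by 0.58, than at 58 h, by 0.17. The collagen col-149 rose by 0.47 at 50 h, and at 58 h it had 6.56, 7.58 and 7.84 CPM with ascr#10 and 10.7, 12 and 11.5 CPM with water. For F59B2.12 the difference was −13.0, a fitted value that depends on the prior count because single groups had 0 or 1 reads, and the reads themselves are given in the report.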

How the results depend on the processing

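With DESeq2 616 genes were called, 212 higher and 404 lower in ascr#10 worms. With limma on log2(TPM + 1) there were 518 (114 higher, 404 lower), and on log2(TPM + 0.1) 507 (110 higher, 397 lower). A test against a fold of 1.2 left 256 (30 higher, 226 lower). Leaving out a library gave 730 to 969 called genes, 220 to 381 of them higher and 510 to 588 lower, and 68 to 96 genes for transcript usage against 39. The cause of these moves was not tested, and each such fit has 5 libraries. Median-of-ratios scaling (1050), no filter (1208), a minimum count of 50 (834), length-scaled counts (915) and a fit of all 18 samples (1289) stayed within 1.5 times of 1045. With a replicate block 903 genes were called, 282 higher and 621 lower. The deviations of same-numbered libraries had correlations of 0.021, −0.037 and −0.016. These show no pairing by number, but with 3 libraries per group they cannot tell whether same-numbered samples were handled together. No sign changed among the 286 named genes called in the main comparison. Of 24 named genes that were not called, 11 changed sign under an alternative, among them oma-2, lin-41, elt-2, sygl-1, mod-5, vit-2, cep-1, egl-1 and fat-7. So did 20 of 51 list medians, all within 0.069 of 0 in the main comparison, the intestinal and the propionate list among them. For the named genes 3797 values kept their side of the threshold and 1128 lost it, and of the list counts 1311 stayed within 1.5 times and 319 did not, mostly counts of a few genes. At these depths a gene of about 1 CPM has some 26 to 33 reads, and changes of moderate size in such genes were not detectable.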

Other observations

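F59B2.12 was not alone in having higher levels in water worms of the first collection at 58 h than in the other groups. Searched after the values were seen, 12 genes were called lower and averaged under 0.2 CPM in ascr#10 worms of that collection, in both groups of the second collection and in water worms at 50 h. They were F59B2.12, the C-type lectin genes clec-197 and clec-99, the trypsin-like protease gene try-8, the insulin-like peptide gene ins-31, tag-329, C48B4.12, K12H6.9, K12H6.4, Y51A2D.8, M7.9 and F09C6.10. In water worms of the first collection at 58 h they averaged 0.505 to 3.57 CPM. In 11 of the 12 the ascr#10 mean at 50 h (0.0452 to 0.553 CPM over the 12) lay above the water mean at 50 h. The lectin gene clec-197 had 1, 1 and 3 reads in ascr#10 libraries and 38, 37 and 34 in water libraries of this collection, and at 50 h 7, 10 and 6 with ascr#10 and 0, 1 and 0 with water. For ins-31 the reads were 2, 0 and 0 with ascr#10 and 20, 22 and 20 with water, and at 50 h 5, 3 and 2 with ascr#10 and 0, 0 and 0 with water. The genes were picked for their pattern, so no test is given.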
